A study of Rattus norvegicus with 24 samples.

Results

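The levels of 4 mature miRNAs known from blood vessels were followed in the lungs of rats that inhaled hexanal, an aldehyde of indoor air. The members were chosen by name on the array, as both arms of miR-126 (listed there as rno-miR-126a-3p and rno-miR-126a-5p), rno-miR-221-3p and rno-miR-222-3p, and the rule used no measured value, although earlier results of these data were known when it was set. These are 4 of the 719 rat miRNAs on the array and 4 of the 283 that were bright enough to test. Each of the 24 Fischer-344 rats had 1 single-colour (Cy3) Agilent miRNA array of total RNA from lung tissue. The control group breathed filtered clean air, and the other groups inhaled hexanal at 600, 1000 or 1500 ppm, with 6 rats per group, 3 males and 3 females. All rats were about 7 to 8 weeks old, and hexanal was given for 4 h per day on 5 days per week over 5 weeks. The labels name no engineered allele. The labels write the same dose numbers in ppm and in mg/m3, so ppm serves here as the name of a group.

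MiR-126 is made from an intron of Egfl7, a gene of endothelial cells, the cells that line blood vessels, and its 3p arm is known to lower Spred1 and Pik3r2, which restrain signalling by vascular growth factors. The 5p arm comes from the other side of the same hairpin. MiR-221 and miR-222 are made from neighbouring hairpins on the X chromosome, and are known in endothelium for lowering Kit, the receptor of stem cell factor, and in vascular smooth muscle for lowering the cell cycle inhibitor Cdkn1b (p27). In a whole lung, fewer cells of a type and less RNA per cell cannot be told apart.

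The mature sequences are given because they show which members share a seed, the stretch that pairs with target mRNAs. They are from RefSeq (GRCr8), which held all 4 members, and are written 5′ to 3′ with the seed (bases 2 to 8) in capitals.
miR-126a-3p: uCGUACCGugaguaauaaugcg
miR-126a-5p: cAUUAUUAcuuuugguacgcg
miR-221-3p: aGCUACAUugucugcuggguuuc
miR-222-3p: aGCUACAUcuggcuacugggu

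MiR-221-3p and miR-222-3p shared their seed and their first 8 bases, and were identical at 11 of 21 positions when aligned from the 5′ end. No other mature miRNA among the 693 of the table carried that seed. The seeds of miR-126a-3p and miR-126a-5p differed from each other, and each was carried by 1 mature miRNA of the table. The arms of miR-126 were placed on chr3:29813182-29813202 (5p) and chr3:29813219-29813240 (3p), both on the plus strand. MiR-222-3p lay at chrX:6022682-6022702 and miR-221-3p at chrX:6023246-6023268, both on the plus strand, and the hairpins of the pair were 458 bases apart. The share of G and C was 45.5% in miR-126a-3p, 38.1% in miR-126a-5p, 47.8% in miR-221-3p and 52.4% in miR-222-3p.

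Levels are log2 values of the spot intensity after each array was scaled to a common 75th percentile, so a difference of 1 is a doubling of the scaled intensity. All 4 members were above background on all 24 arrays. MiR-126a-5p was read by 1 probe and each of the others by 2. The other products of the same loci were dim. RefSeq lists miR-126b on the opposite strand of the miR-126 locus, where it overlaps miR-126a-5p by 17 bases, and neither miR-126b nor miR-222-5p was detected on any array. MiR-221-5p was detected on 5 arrays, and none of these 3 was tested.

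The 24 arrays lay on 3 slides of 8, as read from the array barcodes, and the slides did not hold the groups evenly. All 8 arrays of slide 1 were from males, namely the control and 600 ppm males and 2 of the 3 given 1000 ppm. On slide 2 lay every control female (3), every 1500 ppm male (3), the last 1000 ppm male and 1 of the females given 600 ppm. The remaining 8 females were on slide 3. Before scaling, the 75th percentile ranged from 677 to 1226, 662 to 766 and 772 to 1063 on slides 1, 2 and 3. No spot was saturated. Markers of other lung cells were measured on the same arrays: 5 of 5 epithelial miRNAs (the miR-200 family), 2 of 2 of smooth muscle (miR-143-3p and miR-145-5p) and 4 of 4 of leukocytes passed the brightness filter. No endothelial marker outside miR-126 was listed, so the endothelial origin of the members was not checked with other miRNAs.

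No member passed the test of any exposed group against clean air. MiR-126a-3p, the arm best known for its role in vessel growth, had a log2 level of 13.43 to 13.76 in control lungs (median 13.67), 13.54 to 13.87 at 600 ppm (median 13.63), 13.51 to 13.62 at 1000 ppm (median 13.60) and 13.38 to 13.77 at 1500 ppm (median 13.67). The 4 groups overlapped, and their means (13.63 ± 0.12, 13.65 ± 0.12, 13.58 ± 0.044 and 13.63 ± 0.15, SD, n = 6) lay within 0.069 of each other.

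MiR-126a-5p spread more widely. Its log2 level was 10.10 to 11.31 in control lungs (median 10.79), 10.15 to 11.27 at 600 ppm (median 10.91), 10.21 to 11.26 at 1000 ppm (median 10.45) and 10.22 to 10.40 at 1500 ppm (median 10.32). In the control, 600 ppm and 1000 ppm groups the rats fell into a high and a low set with no value between 10.58 and 11.13, and at 1500 ppm all 6 rats were in the low set. The group means were 10.74 ± 0.61, 10.83 ± 0.49, 10.64 ± 0.44 and 10.31 ± 0.084 (SD, n = 6). The high set was the 8 arrays of slide 1.

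**Figure D1:**
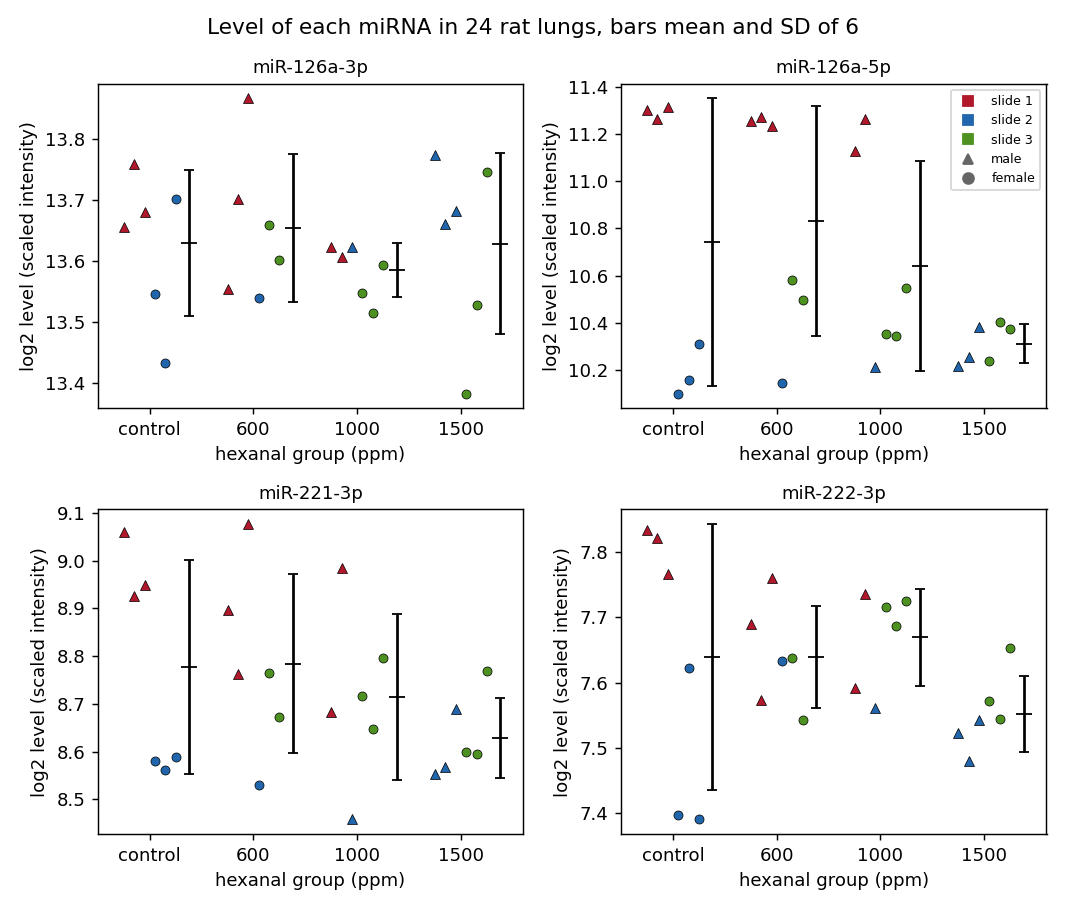
Log2 level (scaled intensity) of each miRNA in the 24 lungs by hexanal group, with triangles for males, circles for females, colour for the slide, and bars for the mean and SD of 6 rats. For miR-126a-5p the 8 slide 1 arrays sit between 11.13 and 11.31 and all others between 10.10 and 10.58.

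MiR-221-3p had a log2 level of 8.56 to 9.06 in control lungs (median 8.76), 8.53 to 9.08 at 600 ppm (median 8.76), 8.46 to 8.98 at 1000 ppm (median 8.70) and 8.55 to 8.77 at 1500 ppm (median 8.597). Its group means were 8.78 ± 0.22, 8.78 ± 0.19, 8.71 ± 0.17 and 8.63 ± 0.083 (SD, n = 6), and the groups overlapped. MiR-222-3p, which has the same seed, lay at 7.39 to 7.83 in control lungs (median 7.69), 7.54 to 7.76 at 600 ppm (median 7.64), 7.56 to 7.74 at 1000 ppm (median 7.70) and 7.48 to 7.65 at 1500 ppm (median 7.54). The means of miR-222-3p were 7.64 ± 0.20, 7.64 ± 0.078, 7.67 ± 0.074 and 7.55 ± 0.058 (SD, n = 6). For both, the SD was largest in the control group, whose males were on slide 1 and whose females were on slide 2, although the range of miR-221-3p was slightly wider at 600 and 1000 ppm.

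The difference from control at 1500 ppm was -0.43 ± 0.25 for miR-126a-5p (SE, limma adjusted p = 0.4999), -0.15 ± 0.10 for miR-221-3p (adjusted p = 0.515), -0.087 ± 0.071 for miR-222-3p (adjusted p = 0.602) and -0.0010 ± 0.069 for miR-126a-3p (adjusted p = 0.992). All 6 rats at 1500 ppm lay below the control mean for miR-126a-5p and for miR-221-3p, 5 of 6 for miR-222-3p and 2 of 6 for miR-126a-3p. The control males were all on slide 1 and no 1500 ppm rat was, so dose and slide cannot be told apart in these counts. For miR-126a-5p every array outside slide 1 lay below the control mean, including those of the control females. At 600 ppm the 4 differences lay between 0.00074 and 0.088, and at 1000 ppm between -0.10 and 0.031. None of the 4 members passed in any of the 3 comparisons, in the test of any dose or in the slope over dose, and of all 283 miRNAs 0% passed in each. At an unadjusted p under 0.05, limma gave 5, 17 and 26 of the 283 at 600, 1000 and 1500 ppm, and 15 for any dose, with no member among them, and with slide as a block the any-dose test gave 24, again with no member. Ordered by mean level, no pair of dose groups passed for any member, and for 0% of all miRNAs. Among these pairs the largest difference was that of miR-126a-5p at 1500 against 600 ppm (-0.52 ± 0.25, limma adjusted p = 0.462). Its unadjusted limma p was 0.0476, and 20 of the 283 miRNAs had an unadjusted p under 0.05 in that comparison.

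The intervals show what these arrays could resolve. For miR-126a-5p at 1500 ppm the 95% interval ran from -0.94 to 0.082 on the log2 scale, whereas with slide as a block in the fit the difference was -0.018 and the interval ran from -0.15 to 0.11. The same block changed miR-221-3p at 1500 ppm from -0.15 (-0.36 to 0.058) to -0.050 (-0.19 to 0.087), miR-222-3p from -0.087 (-0.23 to 0.061) to -0.050 (-0.17 to 0.075) and miR-126a-3p from -0.0010 (-0.14 to 0.14) to 0.062 (-0.083 to 0.21). The slope of miR-126a-5p was -0.29 ± 0.16 per 1000 ppm without the block and -0.019 ± 0.040 with it. With the block, none of the 4 members and 0% of all miRNAs passed the test of any dose. This blocked fit had no sex term, and slides and sexes overlap in this layout. Only slide 2 held both control and 1500 ppm rats, and there the controls were female and the 1500 ppm rats male. Fitted within each sex with the block, the 1500 ppm difference of miR-126a-5p was -0.026 in males and -0.25 in females. The slide offsets of that fit rest on 1 male and 1 female of slide 2. The blocked intervals are therefore no limit on the dose difference within a sex.

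**Figure D2:**
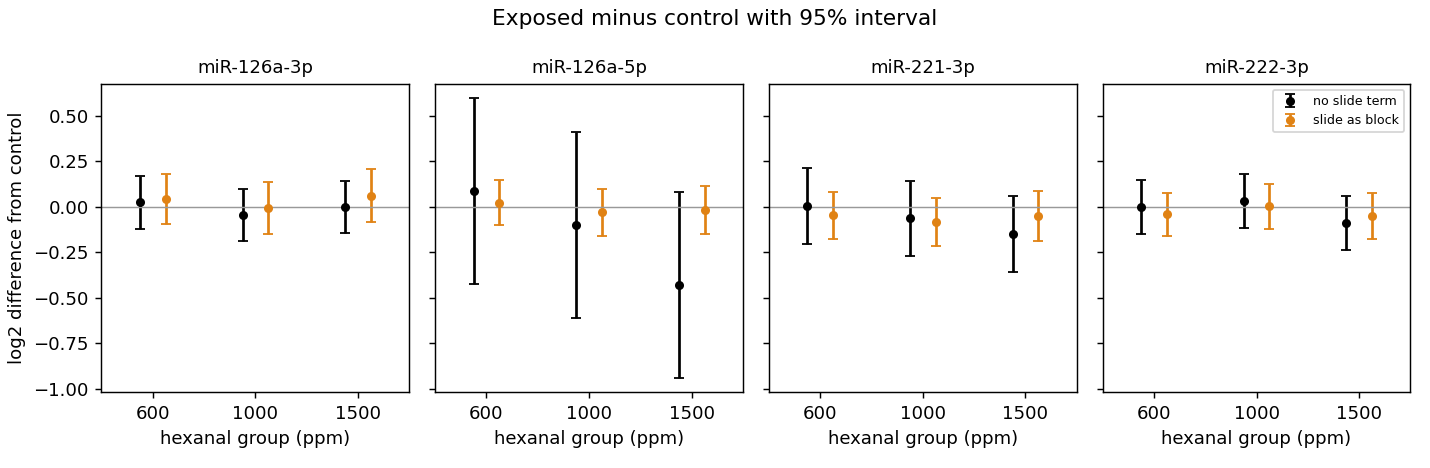
Log2 difference of each exposed group from control with its 95% interval, without a slide term (black) and with slide as a block (orange), for each miRNA. All intervals include 0, and for miR-126a-5p they narrow with the block, from a low end of -0.94 to one of -0.15 at 1500 ppm.

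Dose groups of the same sex with at least 2 rats each could be compared within a slide in 6 ways. Another 2 such pairs, both on slide 2, had a group of 1 rat and were not compared. On slide 1, males at 600 ppm differed from control males by -0.040 ± 0.048 for miR-126a-5p, 0.0094 ± 0.081 for miR-126a-3p, -0.067 ± 0.11 for miR-221-3p and -0.13 ± 0.065 for miR-222-3p (SE, n = 3 and 3, limma adjusted p of 0.912, 0.988, 0.965 and 0.671). On slide 3, females at 1500 ppm differed from females at 1000 ppm by -0.075 ± 0.077, -0.00074 ± 0.093, -0.066 ± 0.070 and -0.12 ± 0.051 for the same miRNAs in that order (n = 3 and 3, limma adjusted p of 0.722, 1, 0.739 and 0.526). They differed from females at 600 ppm by -0.20 ± 0.086, -0.078 ± 0.10, -0.065 ± 0.079 and -0.0011 ± 0.057 (n = 3 and 2, limma adjusted p of 0.425, 0.742, 0.713 and 0.9998). Males at 1000 ppm on slide 1 differed from control males by -0.098 ± 0.054, -0.084 ± 0.091, -0.14 ± 0.12 and -0.14 ± 0.073 (n = 2 and 3, limma adjusted p = 0.978 for each). None of the 4 members passed in any of the 6 comparisons, where 0.353% of all miRNAs passed at 600 ppm against control on slide 1 and 0% in each of the other 5. Control and 1500 ppm rats of one sex never shared a slide, so their difference could not be had within both.

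Between slides the members moved by different amounts. MiR-126a-5p had levels of 11.25 ± 0.057, 10.22 ± 0.093 and 10.42 ± 0.12 from slide 1 to slide 3 (SD, n = 8). MiR-221-3p was at 8.92, 8.57 and 8.70 on the 3 slides, miR-222-3p at 7.72, 7.52 and 7.63, and miR-126a-3p at 13.68, 13.62 and 13.57. Slide membership accounted for 96.5% of the variance of miR-126a-5p, a share that ranked 2nd among the 283 miRNAs, for 71.3% in miR-221-3p, 50.5% in miR-222-3p and 17.3% in miR-126a-3p. The median share over all tested miRNAs was 37.6%.

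Because slides and sexes overlap, the slides were also compared within 1 sex. In males, slide 2 (n = 4) was lower than slide 1 (n = 8) by 0.99 ± 0.044 for miR-126a-5p (log2, SE, limma adjusted p = 4.03e-09), by 0.35 ± 0.074 for miR-221-3p (adjusted p = 0.00170) and by 0.20 ± 0.053 for miR-222-3p (adjusted p = 0.00746), and differed by 0.0039 ± 0.055 for miR-126a-3p (adjusted p = 0.948). Thus 3 of 4 members passed, where 51.2% of all miRNAs did. The males of slide 2 were mostly those at 1500 ppm, and slide 1 held none of these. In females, slide 3 (n = 8) was higher than slide 2 (n = 4) by 0.24 ± 0.066 for miR-126a-5p (adjusted p = 0.0583), and none of the 4 members passed, where 4.95% of all miRNAs did.

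Some rats of the same dose and sex lay on different slides. Among males at 1000 ppm, miR-126a-5p was at 11.13 and 11.26 in the 2 rats of slide 1 and at 10.21 in the rat of slide 2. Among females at 600 ppm it was at 10.15 in the rat of slide 2 and at 10.50 and 10.58 in those of slide 3. The male at 600 ppm whose array was the dimmest of slide 1 before scaling (75th percentile 677) had a level of 11.23, inside the range of its slide. This is 1 rat, and the part of array brightness was not tested.

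The level of miR-126a-3p averages 2 probes that moved in opposite directions between slides. In males, slide 2 minus slide 1 was -0.18 ± 0.064 for one probe (limma over 555 single probes, adjusted p = 0.0300) and 0.19 ± 0.050 for the other (adjusted p = 0.00660). At 1500 ppm against control these probes gave -0.064 ± 0.094 and 0.062 ± 0.069, and neither passed, where 0% of all probes did. The probes of miR-221-3p both fell from slide 1 to slide 2 in males, by 0.39 ± 0.071 and 0.31 ± 0.078. Those of miR-222-3p gave -0.28 ± 0.052, which passed, and -0.11 ± 0.054, which did not (adjusted p = 0.0952). In this comparison 6 of the 7 probes of the members passed, where 51.7% of all probes did.

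**Figure D3:**
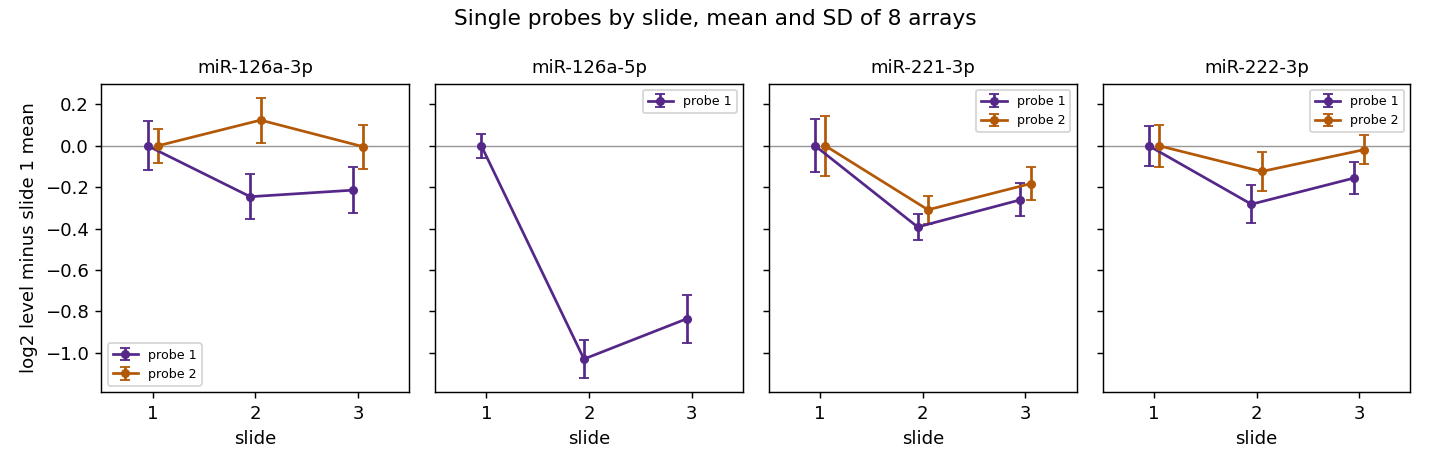
Log2 level of each probe minus its mean on slide 1, by slide, with the mean and SD of 8 arrays. The single probe of miR-126a-5p falls by 1.03 from slide 1 to slide 2, and the probes of miR-126a-3p part, one falling by 0.25 and one rising by 0.12.

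Base composition was set beside the slide difference as a description. Among the 249 tested miRNAs with a RefSeq sequence, the median male difference of slide 2 from slide 1 was 0.039 for the 68 with a G and C share of 35 to 45%, the class of miR-126a-5p, and -0.23 for the 22 under 35%. The fall of miR-126a-5p ranked 3rd among all 283 tested miRNAs.

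Males and females differed in the pooled fit, where dose group was a factor. MiR-126a-5p was higher in males by 0.59 ± 0.13 (log2, SE, limma adjusted p = 0.00160), in 9 of 12 males against the female mean of their dose, and miR-126a-3p by 0.12 ± 0.042 (adjusted p = 0.0338), in 11 of 12 males. For miR-126a-5p these 9 included all 8 males of slide 1, where no female lay, so sex and slide cannot be told apart in that count. MiR-221-3p differed by 0.15 ± 0.064 (adjusted p = 0.0660) and miR-222-3p by 0.063 ± 0.049 (adjusted p = 0.286). Other scalings put miR-221-3p past the threshold, at 0.19 with the percentile over all probes (limma adjusted p = 0.0213), 0.23 with quantile normalization (0.00586) and 0.26 with the total gene signal (0.0250). The call of miR-126a-3p was lost without any 1 of 7 rats (adjusted p from 0.0507 to 0.0628). It was also lost with the brightest probe alone (0.046, limma adjusted p = 0.435), with normexp background correction (0.17, adjusted p = 0.240) and with no filter (0.12, adjusted p = 0.0653). In the main fit 2 of 4 members passed, where 43.8% of all miRNAs did. With slide as a block none of the 4 members passed (1 at an unadjusted p under 0.05, miR-126a-5p), where 3.53% of all did, and the difference was 0.24 for miR-126a-5p (adjusted p = 0.162) and 0.20 for miR-126a-3p (adjusted p = 0.339). Slide 2 alone held 4 rats of each sex, and there miR-126a-5p differed by 0.089 ± 0.060 (adjusted p = 0.468) and miR-126a-3p by 0.13 ± 0.063 (adjusted p = 0.306). None of the members passed on slide 2, where 7.07% of all miRNAs did.

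From control to 1500 ppm the mean levels of 3 members fell in males but not in females. Control males were on slide 1, control females and 1500 ppm males on slide 2, and 1500 ppm females on slide 3. In males, miR-126a-5p had mean log2 levels of 11.29 ± 0.026, 11.25 ± 0.019, 10.87 ± 0.57 and 10.29 ± 0.088 from control to 1500 ppm, and in females of 10.19 ± 0.11, 10.41 ± 0.23, 10.42 ± 0.11 and 10.34 ± 0.088 (SD, n = 3). Male controls thus lay above female controls by more than 1 log2 unit, and males and females at 1500 ppm lay together. MiR-222-3p went from 7.81 ± 0.036 in control males to 7.52 ± 0.033 at 1500 ppm, and from 7.47 ± 0.13 in control females to 7.59 ± 0.057. MiR-221-3p went from 8.98 ± 0.071 to 8.603 ± 0.074 in males and from 8.58 ± 0.014 to 8.65 ± 0.099 in females.

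The test of dose by sex passed for miR-126a-5p (F = 8.00, limma adjusted p = 0.0143) and miR-222-3p (F = 8.62, adjusted p = 0.0143) but not for miR-221-3p (F = 4.24, adjusted p = 0.0644) or miR-126a-3p (F = 0.20, adjusted p = 0.918), and thus for 2 of 4 members, where 25.1% of all miRNAs passed. The response at 1500 ppm was lower in males than in females by 1.16 ± 0.25 for miR-126a-5p (log2, SE, limma adjusted p = 0.00361), by 0.45 ± 0.15 for miR-221-3p (adjusted p = 0.0237) and by 0.41 ± 0.094 for miR-222-3p (adjusted p = 0.00428), so that 3 of 4 members passed, where 35.3% of all did. The call of miR-221-3p was lost without control male 1, 1500 ppm male 16 or 1500 ppm female 38 (adjusted p from 0.0515 to 0.0615). With the percentile over all probes the response difference was -0.20 for miR-221-3p (limma adjusted p = 0.275) and -0.16 for miR-222-3p (adjusted p = 0.189), and neither passed. At 1000 ppm only miR-222-3p of the 4 members passed (-0.42 ± 0.094, limma adjusted p = 0.0433), where 0.707% of all did. With slide as a block the test of dose by sex passed for none of the 4 members and for 0% of all miRNAs (12 at an unadjusted p under 0.05, miR-222-3p among them), with a limma adjusted p of 0.893 for miR-126a-5p and 0.765 for miR-222-3p. In that fit the slide offsets rest on 1 male at 1000 ppm and 1 female at 600 ppm, both on slide 2. It therefore cannot decide whether the sexes differ in their dose response. With the block the 1500 ppm response difference of miR-126a-5p was 0.22 ± 0.18. For miR-222-3p it was -0.35 ± 0.17 for 1500 ppm and -0.43 ± 0.14 for 1000 ppm, beside -0.41 and -0.42 without the block.

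Within males alone, any dose passed for miR-126a-5p (limma adjusted p = 0.00152), miR-222-3p (adjusted p = 0.0140) and miR-221-3p (adjusted p = 0.0251), 3 of 4 members, where 35.3% of all miRNAs passed. The difference of 1500 ppm males from control males was -1.01 ± 0.18 for miR-126a-5p, -0.37 ± 0.11 for miR-221-3p and -0.29 ± 0.067 for miR-222-3p, all past the threshold, and 0.0069 ± 0.087 for miR-126a-3p, again 3 of 4 where 36% of all passed. With the percentile over all probes the values were -0.20 for miR-221-3p (limma adjusted p = 0.157) and -0.11 for miR-222-3p (adjusted p = 0.215), and neither passed. All 3 males at 1500 ppm were on slide 2 and all 3 control males on slide 1. With slide as a block, any dose in males passed for none of the 4 members and for 0% of all miRNAs, and the differences became -0.026 ± 0.13, 0.0014 ± 0.15, -0.19 ± 0.12 and -0.0022 ± 0.16 in the same order. In that fit the offset between slides 1 and 2 among males rests on the single 1000 ppm male of slide 2. Within females none of the 4 members passed for any dose, and 0% of all miRNAs did (limma, 42 at an unadjusted p under 0.05, miR-222-3p among them).

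The value of miR-126a-3p in males depended on the scaling. The 1500 ppm difference of 0.0069 became -0.32 with quantile normalization (limma adjusted p = 0.00152), while the median of all miRNAs was 0.044 (0.042 before), and 0.21 with the brighter probe alone (adjusted p = 0.0487). In the series table, whose values were not scaled between arrays, it was -0.64, where the median of all miRNAs was -0.66. No direction is given for this miRNA in males.

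Markers of other cells were summed on each array by slide, with no test of the sums. The log2 of the summed intensity of 2 red blood cell miRNAs (miR-451-5p and miR-144-3p) was 11.02 to 11.62 on slide 1, 10.03 to 10.86 on slide 2 and 10.46 to 11.38 on slide 3, and the third of that list, miR-486, was not tested. The sum of the 2 smooth muscle miRNAs, a cell type in which miR-221 and miR-222 are also known, was 12.96 to 13.16 on slide 1, 12.69 to 12.94 on slide 2 and 12.74 to 13.05 on slide 3. The slide 1 and slide 2 ranges did not overlap for either sum, but slide 1 held only males and slide 2 both sexes. In males alone, slide 2 minus slide 1 was -0.60 for miR-145-5p and -0.061 for miR-143-3p. It was -1.11 for miR-144-3p and -0.56 for miR-451-5p. The sum of 3 striated muscle miRNAs (miR-1-3p, miR-133a-3p and miR-133b-3p) was 7.41 to 9.16, 7.00 to 9.61 and 7.22 to 10.38 on the 3 slides. The epithelial sum was 11.91 to 12.01, 11.87 to 12.13 and 11.88 to 12.15, and the leukocyte sum 11.65 to 12.00, 11.64 to 12.29 and 11.90 to 12.21, and these 3 sums overlapped on all slides. Across dose groups the smooth muscle sum ranged from 12.69 to 13.02 in control, 12.86 to 13.16 at 600 ppm, 12.86 to 13.05 at 1000 ppm and 12.74 to 12.91 at 1500 ppm. The part of these cells in the levels of the members was not tested.

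A difference of members within the same array does not depend on the scaling between arrays. It is used only to compare arrays, since levels of different probes are not on one scale. The log2 level of miR-126a-3p minus that of miR-126a-5p was 2.89 ± 0.53 in control, 2.82 ± 0.43 at 600 ppm, 2.94 ± 0.43 at 1000 ppm and 3.32 ± 0.17 at 1500 ppm (SD, n = 6). The change from control at 1500 ppm was 0.43 (exact two-sided permutation p = 0.128, adjusted over 6 tests 0.433). By slide the difference was 2.43 ± 0.11, 3.40 ± 0.088 and 3.15 ± 0.10 (SD, n = 8), so the arms of 1 hairpin did not keep a constant difference over slides. For miR-221-3p minus miR-222-3p it was 1.14 ± 0.11, 1.14 ± 0.14, 1.05 ± 0.12 and 1.08 ± 0.048 over the dose groups, with changes of 0.0052, -0.094 and -0.063 from control (exact permutation p of 0.937, 0.182 and 0.216, adjusted 0.937, 0.433 and 0.433). None of the 6 tests passed, and the lowest p was 0.128.

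**Figure D4:**
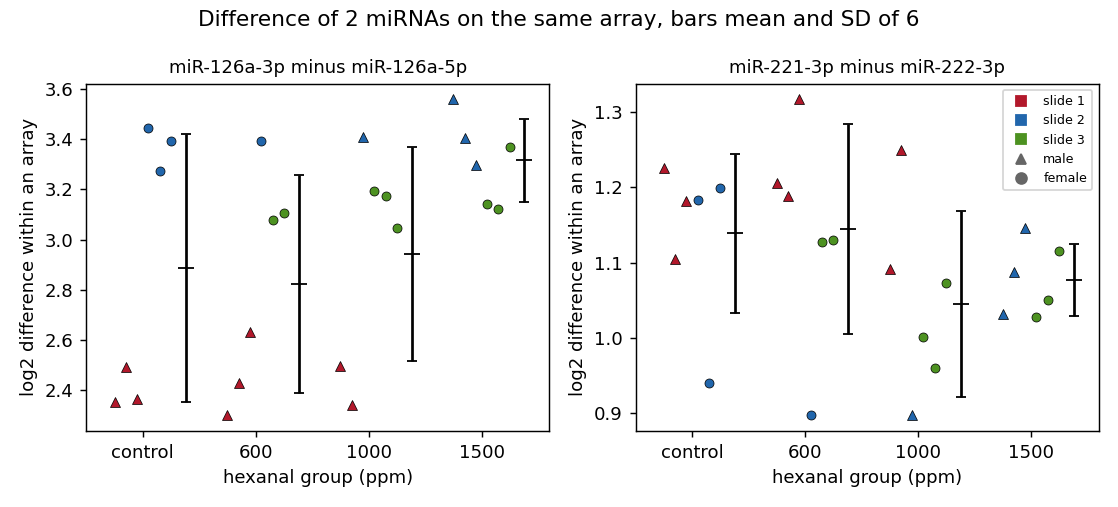
Difference of the log2 levels of a pair of miRNAs on the same array, by hexanal group, with triangles for males, circles for females, colour for the slide, and bars for the mean and SD of 6 rats. The arms of miR-126 differ by 2.43 on average on slide 1 and by 3.40 on slide 2, and the difference of miR-221-3p and miR-222-3p overlaps between all slides.

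Members were set against each other over the 24 rats after removal of slide means, because slide 1 stood apart for miR-126a-5p. The arms of miR-126 correlated at r = 0.50 (permutation within slides, p = 0.0205, adjusted over 6 pairs 0.0411) and rho = 0.53 (p = 0.0128, adjusted 0.0560), with r = 0.071, 0.63 and 0.61 on the 3 slides. Without the 2 rats farthest from the median r was 0.35. MiR-126a-5p and miR-221-3p, which come from different chromosomes, correlated at r = 0.52 (p = 0.00301, adjusted 0.0181) and rho = 0.48 (p = 0.0187, adjusted 0.0560), at r = 0.61, 0.58 and 0.64 by slide, and at 0.47 without 2 rats.

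The clustered pair miR-221-3p and miR-222-3p correlated at r = 0.53 (p = 0.0142, adjusted 0.0411) and rho = 0.38 (p = 0.0813, adjusted 0.122), but r was 0.85, -0.26 and 0.67 on the 3 slides and 0.31 without 2 rats, so the relation rests in part on those rats. For miR-126a-3p with miR-221-3p r was 0.42 (p = 0.0450, adjusted 0.0675) and rho 0.46 (p = 0.0290, adjusted 0.0580). The pairs of miR-222-3p with the arms of miR-126 gave r of 0.020 and 0.12 (p of 0.931 and 0.570). Over all 39903 pairs of tested miRNAs the median r was 0.0852, and 6.52% of pairs were as high as the clustered pair, 6.77% as high as miR-126a-5p with miR-221-3p and 8.07% as high as the arms of miR-126. All members share the array and its scaling factor on a rat.

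The miRNAs with the pattern most like each member were those with the highest r over 24 rats after removal of slide means, given as a description. For miR-126a-3p they were miR-450a-5p (0.86), let-7f-5p (0.86) and let-7a-5p (0.81). For miR-126a-5p they were miR-30e-3p (0.80, and 0.97 with slide means kept), miR-30c-5p (0.77) and miR-28-5p (0.75, but -0.84 with slide means kept). For miR-221-3p they were let-7d-5p (0.70), miR-23a-3p (0.67) and let-7a-5p (0.66). For miR-222-3p the closest was miR-221-3p (0.53), followed by miR-99a-3p (0.44) and miR-532-5p (0.38).

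Other miRNAs known for roles in vessels were described by counts. Of 22 listed, 19 were tested, and 0 of 19 passed the test of any dose (limma, 1 at an unadjusted p under 0.05). Their median difference at 1500 ppm was 0.059, beside 0.0021 over all 283. With slide as a block these medians were 0.0018 and -0.019. The lowest p for any dose was that of miR-210-3p, known for its rise in hypoxia (F = 3.96, limma adjusted p = 0.650), followed by miR-27a-3p (F = 2.51) and miR-100-5p (F = 1.51), both with adjusted p = 0.711. In males alone 10 of 19 passed for any dose, where 35.3% of all did, and with slide as a block 0 of 19 passed. The males at 1500 ppm had more miR-210-3p than control males, by 0.84 ± 0.11 (limma adjusted p = 9.93e-05), and more miR-92a-3p, of the miR-17-92 cluster, by 0.56 ± 0.12 (adjusted p = 0.00163). They had less miR-10b-5p, by a difference of -0.89 ± 0.19 (adjusted p = 0.00122). Higher levels were also found for miR-503-5p (0.39 ± 0.080) and miR-27a-3p (0.33 ± 0.069), each with adjusted p = 0.00122. These lie on the same slides as the male differences of the members, and dose and slide cannot be told apart in them.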

How the data were processed

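Lung RNA of 24 rats was hybridised to 1 Cy3 array each, per the labels. The authors deposited the scanner output of Agilent Feature Extraction 11.5.1.1, with intensity of each spot after background correction and no normalization between arrays per the file headers, and a table of intensity over the whole series. Of its 17256 values, 7125 were above 1 and equal to the total gene signal, and the other 10131 were set to 1. The header names build rn4, and RefSeq sequences here are of GRCr8.

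Control spots and outlier spots were left out, and all arrays of a slide formed 1 scan group. Each array was scaled to the 75th percentile of 394 probes above background on all arrays (common value 865), floored at 11.3 and logged. Probes above background on at least 6 arrays were kept (555 probes), and probes of a miRNA were averaged, which left 283 miRNAs. For low miRNAs the floor makes differences too small. Tests used limma 3.58.1 in R 4.3.3 (tables read by data.table, version 1.17.8), two-sided, with Benjamini-Hochberg adjustment over all miRNAs and a threshold of 0.05. Exact permutation over 924 arrangements or 100000 resamples served for the within-array differences and pairs. The fit was tested on simulated data.

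The members were set by name and not by measured values, and both members and lists were chosen with earlier results of these data known. Named miRNAs followed a rule: the members, the 3 most alike to each, and of the vascular list up to 5 that passed a test by p and the 3 lowest for any dose. Groups came from the labels. Each array is 1 rat, and the number of arrays limits the precision. Alternatives were quantile normalization, a percentile taken from all probes, normexp with offset 50 on median brightness, no or a strict filter, a floor of 1, only the brightest probe, Feature Extraction's total gene signal, the whole-series values as deposited, slide as a fixed or random block, sex as a covariate, trend and robust eBayes, slide means removed, and leaving out each array. The slide comparisons, single probes and base composition were added after seeing the data. The study's methods give no procedure for these miRNA values, so the unpaired limma design was chosen here. There were 0 sample columns without a sample.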

Additional observations from a re-analysis of the deposited data

Results flagged for a closer look

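The dose difference of miR-126a-5p was not alike in males and females, with an interaction F of 8.00 (limma adjusted p = 0.0143), and the same held for miR-222-3p with an F of 8.62 (adjusted p = 0.0143). Control males were on slide 1, control females on slide 2, males at 1500 ppm on slide 2 and females at 1500 ppm on slide 3. With slide as a block the F was 0.74 for miR-126a-5p and 3.39 for miR-222-3p, and neither passed (limma adjusted p of 0.893 and 0.765). The male minus female response at 1500 ppm went from -1.16 to 0.22 for miR-126a-5p with the block. For miR-222-3p it went from -0.41 to -0.35, and at 1000 ppm from -0.42 to -0.43. With the percentile over all probes the 1500 ppm value of miR-222-3p was -0.16 ± 0.10 (SE, limma adjusted p = 0.189). With normexp it was -0.21 ± 0.33 (limma adjusted p = 0.924), and that of miR-126a-5p was -1.12 ± 0.28 (adjusted p = 0.131). The slide offsets of the blocked fit rest on 1 male at 1000 ppm and 1 female at 600 ppm, both on slide 2. In no group of 6 rats did a member's highest or lowest rat exceed the critical value of Dixon's test. The highest Dixon ratio was 0.50, for miR-126a-3p in 600 ppm male 8 (13.87, against 13.61 ± 0.069 in the other 5, SD).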

How the results depend on the processing

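The count of 0 of 4 members in each dose comparison, in the test of any dose, in the slope and within females was kept under every alternative run. The count for male against female (2) became 1 with normexp, with no filter and with the brightest probe, where the call of miR-126a-3p was lost. It became 0 with slide as a fixed or random block. In the other direction, miR-221-3p, not called in the main fit, passed with the percentile over all probes, quantile normalization and the total gene signal. The interaction count (2) became 1 with the percentile over all probes and 0 with normexp and either block. The count for any dose in males (3) became 1 with that percentile and 0 with normexp and either block. For sex, interaction and any dose in males, 43.8%, 25.1% and 35.3% of all miRNAs passed in the main fit. With the fixed block 3.53%, 0% and 0% passed, and with the random block 0, 0 and 1 of 283. Shares over all miRNAs under the other alternatives are not given here, so these counts cannot be set against them. Leaving out 1 rat, the counts for sex and for males each ranged from 1 to 3. The count for sex was 1 without control male 2, control female 21 or 22, 600 ppm male 8 or female 26, or 1500 ppm male 16 or female 36, and that for males was 1 without 1500 ppm male 17. The cause of these moves was not tested. Other scalings moved the median of all miRNAs in the 1500 ppm male difference by 0.14 (all probes), 0.094 (normexp), -0.18 (total gene signal) and -0.70 (series table).

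Signs turned mostly in differences near 0. At 600 ppm, with the percentile over all probes, quantile normalization, the brightest probe, the series table, slide as a block and slide as a random block, miR-221-3p became -0.0053, -0.026, -0.0060, -0.057, -0.046 and -0.039, and miR-222-3p -0.010, -0.028, -0.00068, -0.060, -0.039 and -0.034. MiR-126a-3p at 600 ppm became -0.011 with quantile normalization, -0.055 with normexp and -0.040 in the series table. At 1000 ppm miR-222-3p became -0.039 with normexp, and in the series table miR-126a-3p became 0.020 and miR-221-3p 0.0033. At 1500 ppm miR-126a-3p became 0.055 with all probes, 0.062 with the brightest probe, 0.062 with the slide block and 0.053 with the random block, and its slope 0.028, 0.025, 0.031 and 0.024. MiR-222-3p in males against females became -0.071 with normexp.

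In 1500 ppm males, miR-126a-3p became -0.32 with quantile normalization, -0.00041 with normexp, -0.11 with total gene signal, -0.64 in the series table and -0.0022 with the slide block, and miR-221-3p 0.0014 with that block. The male minus female response at 1500 ppm became -0.36 (limma adjusted p = 0.00601), -0.12 (0.581) and -0.78 (0.0167) for miR-126a-3p with quantile normalization, total gene signal and the series table, but 0.30 (adjusted p = 0.0495) with the brightest probe, so that calls were made in both directions. It became 0.22 for miR-126a-5p and 0.11 for miR-221-3p with the slide block. Within an array, miR-221-3p minus miR-222-3p at 600 ppm became -0.077 with normexp and -0.0054 with the brightest probe, and with slide means removed the difference of the miR-126 arms at 600 ppm became 0.017 and that of miR-221-3p and miR-222-3p at 1500 ppm 0.0049.

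Leaving out 1 rat gave ranges over 0 for miR-126a-3p at 600 ppm (-0.018 to 0.050), at 1500 ppm (-0.040 to 0.048), in its slope (-0.037 to 0.014), in 1500 ppm males (-0.028 to 0.037) and in the 1500 ppm response (-0.069 to 0.11), for miR-126a-5p at 600 ppm (-0.040 to 0.23) and 1000 ppm (-0.23 to 0.014), for miR-221-3p at 600 ppm (-0.053 to 0.062), for miR-222-3p at 600 ppm (-0.049 to 0.040) and 1000 ppm (-0.019 to 0.070), and within an array for the miR-126 arms at 600 ppm (-0.18 to 0.047) and 1000 ppm (-0.051 to 0.18) and for miR-221-3p minus miR-222-3p at 600 ppm (-0.035 to 0.055). No paired analysis was possible because replicate numbers differ between groups. All members were above background on all arrays, and the part of array brightness, which differed by slide, was not tested.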
